A study of Homo sapiens with 9 samples.

Results

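The 10 enzymes described here make serine, mitochondrial one-carbon units, asparagine and proline, and they are PHGDH, PSAT1, PSPH, SHMT2, MTHFD2, MTHFD1L, ALDH1L2, ASNS, ALDH18A1 and PYCR1. They were taken by name for their place in these pathways, with earlier results of these data known, and they are 10 of the 56865 genes to which the transcripts were assigned. Expression was measured by RNA sequencing of poly(A)-selected RNA in 9 libraries of cells given as BxPC3, a human pancreatic adenocarcinoma line, all of genotype p53Y220C/-, which carries a mutant p53 that is destabilised and a second allele that is missing. The groups were MS172, PK9328 and the DMSO vehicle, with 3 libraries each. PK9328 is known from the literature as a small molecule that binds the pocket left by this p53 mutation. The treatment protocol gives 5 µM of compound and 6 h of exposure, but it names MS78 in place of MS172, so the dose and time of the MS172 libraries rest on a protocol that uses another compound name. All groups are cultures of a single line, and the labels give a number to each replicate but do not tell whether it was a culture of its own, so a p-value measures the spread between libraries, which may be technical.

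Serine is made from the glycolytic intermediate 3-phosphoglycerate in successive steps by PHGDH, PSAT1 and PSPH. In mitochondria SHMT2 moves a carbon from serine to tetrahydrofolate, MTHFD2 oxidises that carbon unit, MTHFD1L releases it as formate for purine and thymidylate synthesis in the cytosol, and ALDH1L2 instead oxidises it to carbon dioxide. ASNS makes asparagine from aspartate and glutamine, while ALDH18A1 and PYCR1 turn glutamate into proline. Many of these genes are known targets of ATF4, a transcription factor whose translation rises when amino acids are short, when proteins misfold or when mitochondria are impaired, and which binds C/EBP-ATF response elements.

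The core of that element, read as TGATGNAA or on the other strand as TTNCATCA, was searched in windows of 250 bases before to 50 bases after the starts of RefSeq genes on GRCh38.p14. These windows are shown because ASNS is a textbook case of ATF4 control through such an element. Of the 10 enzymes, 6 had a window in the table (PHGDH, PSAT1, MTHFD2, MTHFD1L, ASNS and ALDH18A1), and 2 of the 6 held a match in at least 1 window, against 4.46% of the 27305 genes in the table (3.62% of all 35116 windows). PSPH, SHMT2, ALDH1L2 and PYCR1 had no window there. ASNS was a known case beforehand and MTHFD1L has 4 starts in the table, so 2 of 6 is no test of enrichment. The matches follow 5′ to 3′ with the core in capitals. A match is a description of letters and not a measured binding site.
ASNS: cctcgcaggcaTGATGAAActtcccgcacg
MTHFD1L: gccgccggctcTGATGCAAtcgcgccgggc
The ASNS sequence is the minus strand of chr7:97872458-97872487, and its core lies 68 to 61 bases before the RefSeq start at 97872408. In GENCODE 29 the core falls in non-coding exon sequence of ASNS-202, the transcript with most of the reads of the gene. The MTHFD1L sequence is the plus strand of chr6:150866346-150866375. Its core lies 129 to 122 bases before one RefSeq start and 90 to 83 bases before another, and it falls in a coding exon of MTHFD1L-212 and in an intron of the other coding transcripts that span it.

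Because the files give estimates per transcript, the splice junctions that set the MTHFD2 transcripts apart can also be shown. The letters are the plus strand of GRCh38 chromosome 2, with the last 15 bases of the upstream exon in lower case and the first 15 bases of the next exon in capitals.
MTHFD2-201: cctcgcggcagttcgAAATGAAGCTGTTGT
MTHFD2-205: cctcgcggcagttcgGAATCAACAGTGAGA
MTHFD2-203: cagctgcagttgtggGTGATGCCACTGTTA
MTHFD2-201 joins exon 1, ending at 74198742, to exon 2, starting at 74205705, and has 350 coding codons. MTHFD2-205 joins the same exon end to exon 3 at 74207704. It leaves out 185 bases, which is not a multiple of 3, and its annotated reading frame stops after 37 codons, so GENCODE lists it as a target of nonsense-mediated decay. MTHFD2-203 joins exon 2, ending at 74205889, to exon 6 at 74211199, leaves out 384 bases in frame and has 222 codons.

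Library depth was 24077353 to 28031886 estimated reads, and 13914 genes passed the filter on low counts, all 10 enzymes among them. Of 12 ductal epithelial markers, 6 lay under 1 CPM (counts scaled to library size) in every library. EPCAM reached at most 0.0745 CPM, CDH1 0.0417 CPM and KRT7 0.103 CPM, and CLDN7, GRHL2 and ESRP1 also lay under 1 CPM. Other ductal markers were present. KRT18 averaged 947 CPM with MS172, 726 CPM with PK9328 and 785 CPM with DMSO. In the same order KRT8 averaged 838, 666 and 732 CPM, KRT19 355, 296 and 311 CPM, and CLDN4 209, 101 and 122 CPM. ELF3 was instead lowest with MS172, at 5.52 CPM with MS172, 8.76 CPM with PK9328 and 10.6 CPM with DMSO. MUC1 averaged 4.35 CPM with MS172, 3.71 CPM with PK9328 and 3.77 CPM with DMSO. Of 9 mesenchymal and fibroblast markers, 5 (FN1, CDH2, PDGFRB, LUM and DCN) lay under 1 CPM in every library. VIM averaged 10104 CPM with MS172, 8166 CPM with PK9328 and 9391 CPM with DMSO, and COL1A2 averaged 2487 CPM with MS172, 1813 CPM with PK9328 and 2416 CPM with DMSO. COL1A1 was low, at 1.79 CPM with MS172, 1.21 CPM with PK9328 and 1.41 CPM with DMSO. ZEB1 ran the other way, at 85.2 CPM with MS172, 99.9 CPM with PK9328 and 91.8 CPM with DMSO. SMAD4, which the literature gives as homozygously deleted in BxPC-3, was present at 51.6 to 64.1 CPM. The markers are thus mixed, and the levels of EPCAM, CDH1, KRT7 and SMAD4 are not those described for this line, so its name is used here only as the label. The summed ductal markers came to 2308 to 2440 CPM with MS172, 1770 to 1863 CPM with PK9328 and 1876 to 2030 CPM with DMSO. The summed mesenchymal markers came to 12400 to 12920 CPM with MS172, 9979 to 10250 CPM with PK9328 and 11790 to 11960 CPM with DMSO. All 4 acinar markers were at 0. The part of these marker differences in the results below was not tested. All 3 PK9328 libraries had shorter fragments (249.5 to 263 bases) than the MS172 libraries (274.1 to 292.8 bases) and the DMSO libraries (281.2 to 289.1 bases).

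The genes lie on 8 chromosomes of GRCh38. PHGDH is at chr1:119648411-119744226 on the plus strand, PSAT1 at chr9:78297143-78330093 on the plus strand and PSPH at chr7:56011051-56051604 on the minus strand. SHMT2 is at chr12:57229327-57234935 on the plus strand, MTHFD2 at chr2:74198562-74217565 on the plus strand, MTHFD1L at chr6:150865549-151101887 on the plus strand and ALDH1L2 at chr12:105019784-105084577 on the minus strand. ASNS is at chr7:97852118-97872542, ALDH18A1 at chr10:95605929-95656706 and PYCR1 at chr17:81932384-81942412, all on the minus strand.

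Per length, the enzymes spanned more than 2 orders of magnitude within a group. With DMSO, SHMT2 was the highest at 228.5 ± 7.68 TPM (reads scaled to transcript length and library size; mean ± SD, n = 3). PHGDH (154.4 ± 3.1 TPM), PYCR1 (146.9 ± 7.4 TPM), MTHFD2 (135.9 ± 6.4 TPM), ASNS (128.6 ± 5.3 TPM) and PSAT1 (120.2 ± 7.6 TPM) followed, and each overlapped its neighbour in that order. ALDH18A1 (82.5 ± 4.3 TPM), PSPH (61.3 ± 2.6 TPM), MTHFD1L (15.9 ± 1.2 TPM) and ALDH1L2 (1.30 ± 0.085 TPM) stood apart from each other. The order was the same with MS172, where SHMT2 averaged 211.8 TPM and ALDH1L2 1.03 TPM. With PK9328, SHMT2 was again highest (261.8 TPM), MTHFD2 came next (175.8 TPM), and PSPH (89.7 TPM) overlapped ALDH18A1 (81.6 TPM). Most isoenzymes were at lower TPM than the enzyme they resemble with DMSO. SHMT1 averaged 65.5 TPM, MTHFD2L 8.81 TPM, ALDH1L1 0.401 TPM and PYCR3 9.38 TPM, whereas the cytosolic MTHFD1 (85.4 TPM) exceeded the mitochondrial MTHFD1L.

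The first question was whether MS172 changed the enzymes relative to vehicle, the comparison named in the series design. Of the 10, PHGDH, PSAT1, SHMT2, MTHFD2, ASNS and PYCR1 rose (6 genes) and none fell at an edgeR adjusted p under 0.05, but without the TMM scaling described below 3 rose and 1 fell. At an unadjusted p under 0.05 edgeR likewise gave 6 and 0, as did the adjusted p of DESeq2 and limma-voom. Among all tested genes 35.1% were called in this comparison, with 17.9% that rose and 17.2% that fell. The libraries of the same 6 enzymes lay wholly above those of DMSO, and no enzyme lay wholly below. Of all tested genes the libraries did not overlap for 44.6%, with 21.9% above and 22.7% below. The rises were small, 1.08-fold to 1.2-fold, and the median log2 fold change was 0.13 over the 10 enzymes, against -0.02 over all tested genes. In these bulk libraries fewer cells with a transcript and less of it per cell cannot be told apart. All CPM values and fold changes are scaled by TMM, which sets each library relative to the bulk of its genes.

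PK9328 was set against vehicle in the same way, and the DMSO libraries are shared by both comparisons. Here PSAT1, PSPH, SHMT2, MTHFD2, ASNS and PYCR1 rose (6 of 10) and none fell at an edgeR adjusted p under 0.05, and 3 of them still rose with fragment length as a covariate. None fell by DESeq2 or limma-voom either, and at an unadjusted p under 0.05 edgeR gave 1 lower, ALDH18A1. The background was lower, since 15.5% of all tested genes were called, with 7.98% that rose and 7.48% that fell. The libraries of these 6 lay wholly above DMSO and those of ALDH18A1 wholly below, against 15.9% above and 15.4% below among all tested genes (31.3% in either direction). The rises ran from 1.08-fold to 1.38-fold, with a median log2 fold change of 0.13 over the 10 enzymes and 0.00 over all tested genes. Between the compounds, MS172 against PK9328, 3 enzymes were higher with MS172 (PHGDH, ALDH18A1 and PYCR1; 0 on library totals) and 3 were lower (PSAT1, PSPH and MTHFD2; 6 on library totals). Of all tested genes 47.7% were called in that contrast, 23.3% higher and 24.4% lower, so 3 of 10 in each direction is near this background and is no result about the enzymes. The libraries of the same 3 lay wholly above and those of 4, ASNS being the fourth, wholly below, against 26.3% above and 29.1% below among all tested genes (55.4% in either direction).

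**Figure D1:**
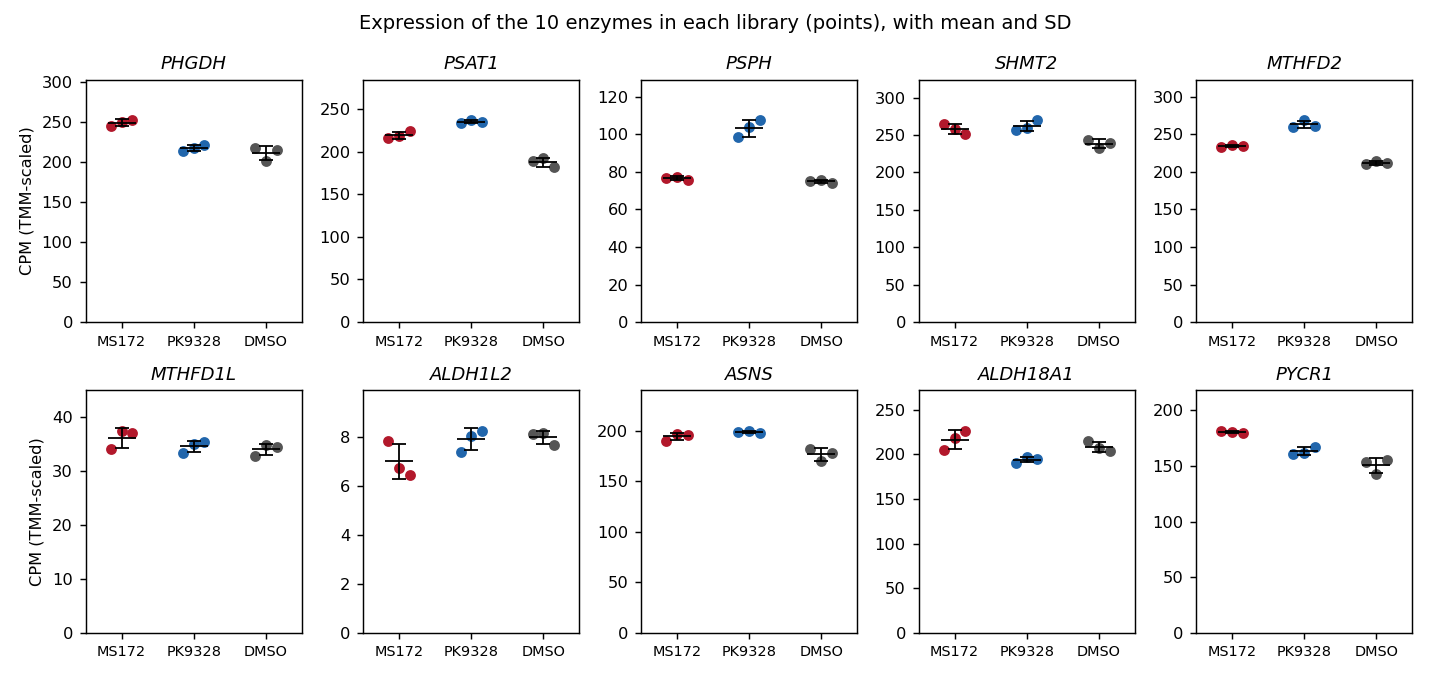
Each point is a library of MS172, PK9328 or DMSO, on a vertical axis of TMM-scaled CPM that starts at 0, and the lines give the mean and SD of 3 libraries. PSPH stands at 98.3 to 108 CPM with PK9328, against 75.5 to 77.4 CPM with MS172 and 74.1 to 75.7 CPM with DMSO, and PHGDH and PYCR1 are highest with MS172.

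PHGDH, which oxidises 3-phosphoglycerate in the first step of serine synthesis, rose with MS172. Its libraries held 245, 251 and 252 CPM with MS172, 214, 218 and 222 CPM with PK9328, and 218, 202 and 215 CPM with DMSO. The MS172 libraries lay above all others, and the PK9328 and DMSO libraries overlapped. For MS172 against DMSO the log2 fold change was 0.24 ± 0.036 (SE), with an edgeR adjusted p of 7.9e-06. For PK9328 against DMSO it was 0.04, with a 95% interval of -0.03 to 0.12 (edgeR adjusted p = 0.48). The difference between the compounds, MS172 against PK9328, was itself past the threshold at 0.19 ± 0.036 (edgeR adjusted p = 6.1e-05). That call was lost on library totals and with fragment length as a covariate.

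PSAT1, the aminotransferase of the second step, rose with both compounds. It held 216, 219 and 224 CPM with MS172, 233, 237 and 235 CPM with PK9328, and 188, 193 and 182 CPM with DMSO. The 3 groups did not overlap, with PK9328 on top and DMSO at the bottom. On the log2 scale the fold change was 0.23 ± 0.035 with MS172 (edgeR adjusted p = 1.1e-05) and 0.33 ± 0.035 with PK9328 (edgeR adjusted p = 7.0e-08). MS172 against PK9328 came to -0.10 on the log2 scale (edgeR adjusted p = 0.019). That call was lost without MS172 replicate 1 (edgeR adjusted p = 0.0792), MS172 replicate 2 (0.0556) or PK9328 replicate 2 (0.0629).

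PSPH, the phosphatase that releases serine, showed the widest gap between the compounds. Its libraries held 76.8, 77.4 and 75.5 CPM with MS172, 98.3, 104 and 108 CPM with PK9328, and 75.2, 75.7 and 74.1 CPM with DMSO. Only the PK9328 libraries stood apart, while those of MS172 and DMSO overlapped. PSPH rose 1.38-fold with PK9328 (0.46 ± 0.042 on the log2 scale, edgeR adjusted p = 2.3e-09). With MS172 the log2 fold change was 0.03 with a 95% interval of -0.06 to 0.12 (edgeR adjusted p = 0.63). MS172 against PK9328 came to -0.43 on the log2 scale (edgeR adjusted p = 1.2e-09), the largest difference of this contrast among the 10 enzymes.

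SHMT2, the mitochondrial serine hydroxymethyltransferase, was slightly higher with each compound on the TMM scale. It held 264, 259 and 251 CPM with MS172, 256, 259.8 and 269.9 CPM with PK9328, and 243, 232 and 239.8 CPM with DMSO. Both treated groups lay above DMSO and overlapped each other. Against DMSO the log2 fold change was 0.11 ± 0.036 with MS172 (edgeR adjusted p = 0.013) and 0.14 ± 0.036 with PK9328 (edgeR adjusted p = 0.0084). The MS172 call was lost without MS172 replicate 1 (edgeR adjusted p = 0.0723) or DMSO replicate 2 (0.0559), and the PK9328 call without PK9328 replicate 3 (0.0587). The MS172 call was also lost on library totals and with length-scaled TPM, and the PK9328 call with fragment length as a covariate. In TPM, SHMT2 was lower with MS172 (211.8 TPM) than with DMSO (228.5 TPM), and higher with PK9328 (261.8 TPM). Between the compounds the log2 fold change was -0.02, with a 95% interval of -0.09 to 0.05.

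MTHFD2, the dehydrogenase and cyclohydrolase that follows SHMT2 in mitochondria, rose with both compounds and more with PK9328. It held 233, 235 and 234 CPM with MS172, 259.7, 269 and 261 CPM with PK9328, and 210.0, 214 and 211 CPM with DMSO. The 3 groups were fully separate. The log2 fold change was 0.14 ± 0.034 with MS172 (edgeR adjusted p = 0.0015) and 0.31 ± 0.034 with PK9328 (edgeR adjusted p = 7.2e-08). MS172 against PK9328 gave -0.17 (edgeR adjusted p = 0.00013). The call for MS172 against DMSO was lost on library totals, and the call between the compounds with fragment length as a covariate.

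The later mitochondrial folate enzymes passed in no comparison of the TMM-scaled fit, but under other settings against DMSO MTHFD1L was called higher with MS172 (0.15 with a GC and length offset, edgeR adjusted p = 0.0275) and ALDH1L2 lower (-0.30 on library totals, 0.0309). MTHFD1L, the formyltetrahydrofolate synthetase that yields formate, held 34.0, 37.4 and 37.0 CPM with MS172, 33.4, 35.0 and 35.3 CPM with PK9328, and 32.7, 34.8 and 34.4 CPM with DMSO. The groups overlapped, and the 95% interval of its log2 fold change was -0.03 to 0.20 for MS172 and -0.09 to 0.14 for PK9328. ALDH1L2, the formyltetrahydrofolate dehydrogenase, was by far the lowest, at 7.83, 6.75 and 6.465 CPM with MS172, 7.41, 8.07 and 8.265 CPM with PK9328, and 8.14, 8.19 and 7.70 CPM with DMSO. Its intervals were -0.41 to 0.03 for MS172 and -0.23 to 0.20 for PK9328, the widest of the 10, from 152 to 236 reads per library. C12orf45 overlaps ALDH1L2 on the opposite strand with more reads (281 on average, against 199), and whether strand was used in the counting is not given in the sources used here, so the ALDH1L2 values are uncertain.

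ASNS, the asparagine synthetase, was higher with both compounds on the TMM scale. It held 190.5, 198 and 196 CPM with MS172, 199, 200.2 and 198 CPM with PK9328, and 182, 170.05 and 179 CPM with DMSO. Both treated groups lay above the DMSO libraries. Set against DMSO, ASNS had a log2 fold change of 0.14 ± 0.036 with MS172 (edgeR adjusted p = 0.0035) and 0.17 ± 0.036 with PK9328 (edgeR adjusted p = 0.0011). Between the compounds it was -0.03, with a 95% interval of -0.11 to 0.04. The MS172 call against DMSO was lost on library totals, and the PK9328 call with fragment length as a covariate.

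On the TMM scale the proline enzymes differed between the compounds. ALDH18A1, the pyrroline-5-carboxylate synthase that starts from glutamate, held 205, 218 and 226 CPM with MS172, 191, 197 and 194 CPM with PK9328, and 215, 207 and 203.5 CPM with DMSO. The PK9328 libraries lay below all others, and MS172 overlapped DMSO. The log2 fold change was 0.05 with MS172 (95% interval -0.02 to 0.13) and -0.10 with PK9328 (95% interval -0.18 to -0.03, edgeR adjusted p = 0.065), and neither passed the threshold. With a GC and length offset both did, at 0.12 with MS172 (edgeR adjusted p = 0.00516) and -0.10 with PK9328 (0.0298). MS172 against PK9328 passed in the TMM-scaled fit, at 0.16 (edgeR adjusted p = 0.0011). That call was lost on library totals and with fragment length as a covariate.

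PYCR1, the reductase of the last step to proline, had the largest rise with MS172. It held 181.5, 180.3 and 179 CPM with MS172, 161, 161 and 167 CPM with PK9328, and 153, 143 and 155 CPM with DMSO. The groups were separate and ordered MS172, PK9328, DMSO from the top. The log2 fold change was 0.26 ± 0.038 with MS172 (edgeR adjusted p = 2.9e-06) and 0.12 ± 0.037 with PK9328 (edgeR adjusted p = 0.032). The PK9328 call was lost without PK9328 replicate 1 (edgeR adjusted p = 0.0527), replicate 2 (0.0672) or replicate 3 (0.143), without DMSO replicate 2 (0.163), and with the replicate number as a block (0.0517). MS172 exceeded PK9328 by 0.15 on the log2 scale (edgeR adjusted p = 0.0019), though by 0.004 on library totals, where the call was lost. The same call was also lost with fragment length as a covariate and with the GC and length offset.

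**Figure D2:**
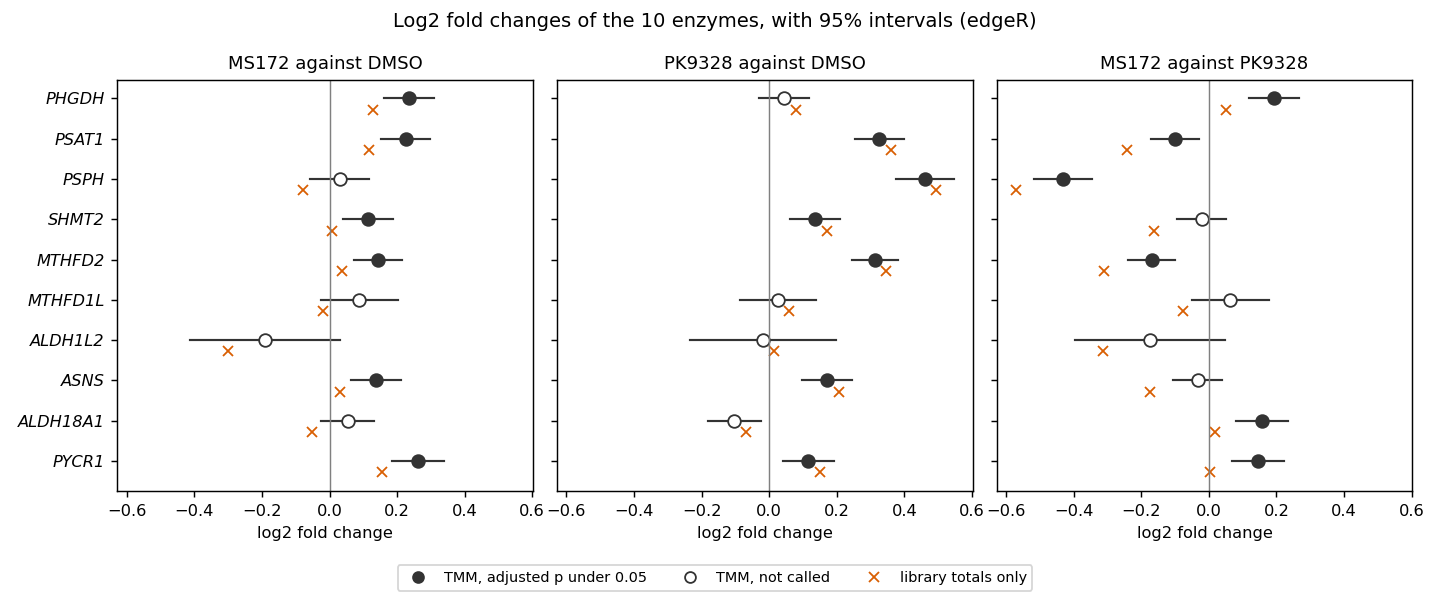
Log2 fold changes of the 10 enzymes in the 3 comparisons, with circles and 95% intervals from the TMM-scaled edgeR fit (filled where the adjusted p is under 0.05) and crosses from library totals alone. In both contrasts of MS172 the crosses lie to the left of the circles, and PSPH is the enzyme farthest to the right for PK9328 (0.46) and farthest to the left between the compounds (-0.43).

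The small rises with MS172 depended on how libraries were scaled. The TMM factors were 0.9396 to 0.9494 in MS172 libraries, 1.0331 to 1.0481 in PK9328 libraries and 1.0043 to 1.0327 in DMSO libraries. With library totals in place of TMM, a setting added after the data were seen, the median log2 fold change of all tested genes moved to -0.13 for MS172 against DMSO, to 0.04 for PK9328 against DMSO and to -0.17 between the compounds. TPM, which carries no TMM scaling, gave medians of -0.014 over the enzymes and -0.178 over all tested genes for MS172 against DMSO. Relative to DMSO, PHGDH (0.13), PSAT1 (0.12) and PYCR1 (0.16) still rose with MS172 on library totals, SHMT2 (0.01), MTHFD2 (0.04) and ASNS (0.03) no longer passed the test, ALDH1L2 fell (-0.30, edgeR adjusted p = 0.0309), and PSPH (-0.08), MTHFD1L (-0.02) and ALDH18A1 (-0.05) turned negative without passing it. Genes called in this comparison split into 980 higher and 4474 lower on that scale, against 2486 higher and 2398 lower with TMM. The 6 enzymes that rose with PK9328 did so on either scale, where the split of all genes was 1474 higher and 605 lower without TMM and 1110 higher and 1041 lower with it. Between the compounds no enzyme was higher with MS172 without TMM (edgeR, also 0 at an unadjusted p under 0.05) and 6 were lower, and the split of all genes was 1302 higher and 5747 lower, against 3240 higher and 3401 lower with TMM.

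The PK9328 results carried another limit, since fragment length separated these libraries from all others. With fragment length as a covariate, PSAT1 (0.37 ± 0.072, edgeR adjusted p = 0.0029), PSPH (0.40 ± 0.086, 0.0084) and MTHFD2 (0.34 ± 0.070, 0.0069) still rose against DMSO. SHMT2 (0.06, edgeR adjusted p = 0.813), ASNS (0.23, 0.117) and PYCR1 (0.07, 0.799) did not pass. In that fit 178 of all tested genes were called for PK9328 against DMSO, against 2151 without the covariate, and only PSPH of the enzymes was called between the compounds (-0.37 ± 0.089, edgeR adjusted p = 0.0032). With the covariate and the replicate block together no enzyme passed in edgeR for PK9328 against DMSO (4 at an unadjusted p under 0.05), out of 74 genes called. As fragment length separated the PK9328 libraries fully, its part and that of the compound cannot be told apart.

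For 4 of the 10 enzymes a single transcript took over 90% of the reads, and the others were more divided. Averaged over the 9 libraries, PHGDH-202 took 99.8% of the estimated reads of PHGDH, PSAT1-202 95.9%, ALDH1L2-201 93.7%, ALDH18A1-202 91.6%, ASNS-202 84.8% and PSPH-202 78.4% (59.95% of the summed TPM of PSPH). MTHFD1L was divided between MTHFD1L-212 (70.2%) and MTHFD1L-203 (22.6%), and PYCR1 among PYCR1-216 (41.7%), PYCR1-217 (23.3%) and PYCR1-203 (14.7%). These shares are model estimates that split reads of shared exons, so they are given with no test.

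MTHFD2 and SHMT2 gave sizeable shares to transcripts annotated as targets of nonsense-mediated decay. For SHMT2 that transcript was SHMT2-226, with mean shares of 23.55% with MS172, 19.81% with PK9328 and 22.51% with DMSO. The exon-skipping MTHFD2-205 took 28.8%, 29.3% and 26.3% of the MTHFD2 reads with MS172, 33.05%, 33.02% and 33.07% with PK9328, and 31.1%, 32.2% and 33.6% with DMSO. The MS172 libraries were the lowest, without overlap. The in-frame MTHFD2-203 took 24.8%, 20.5% and 21.9% with MS172, 20.2%, 15.2% and 17.4% with PK9328, and 15.8%, 15.4% and 18.8% with DMSO, so that the MS172 libraries were the highest, again without overlap. MTHFD2-201 stayed close in all groups, with means of 45.5 ± 1.6%, 45.7 ± 1.9% and 47.5 ± 1.9% for MS172, PK9328 and DMSO (SD, n = 3 each). For SHMT2, the short non-coding SHMT2-213 took 4.16%, 5.25% and 4.89% with MS172, 14.97%, 15.6% and 7.89% with PK9328, and 6.48%, 8.11% and 10.0% with DMSO. The MS172 libraries were below all others, and PK9328 overlapped DMSO. How often the shares of other transcripts separate by group was not counted, so these separations are description only. The coding SHMT2-223, also short, took 0%, 0% and 8.86% of the SHMT2 reads in the same PK9328 libraries, so the 2 libraries with most SHMT2-213 were those listed at 0 for SHMT2-223. Counted as a share of summed TPM, which weights short transcripts more, MTHFD2-205 averaged 51.2% and MTHFD2-201 20.4% over all libraries, so the order of the MTHFD2 transcripts depends on the measure.

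**Figure D3:**
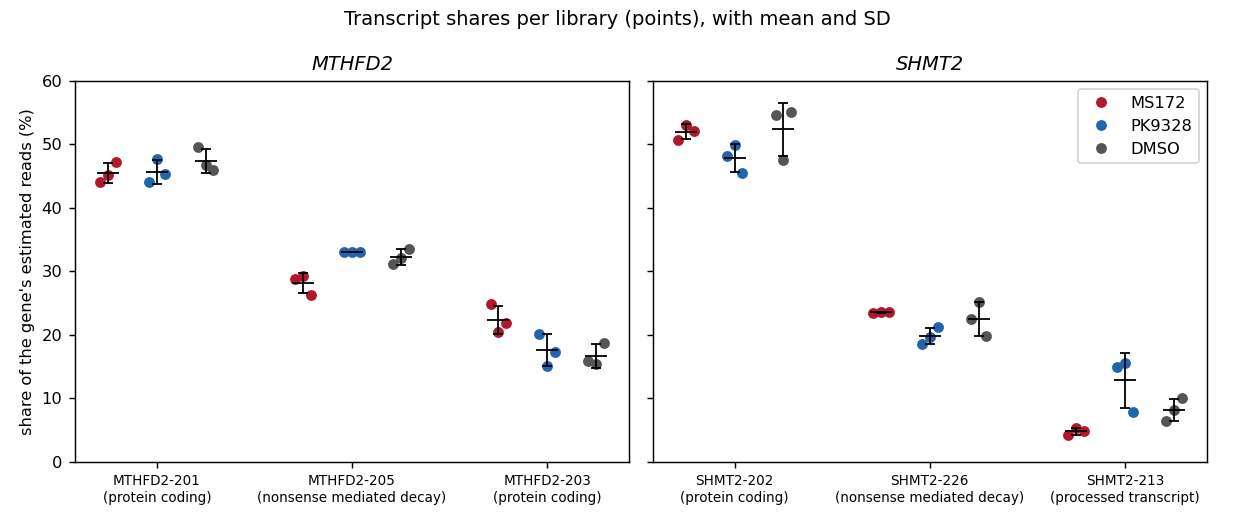
Share of the estimated reads of MTHFD2 (left) and SHMT2 (right) in percent, on a vertical axis that starts at 0, for the 3 main transcripts of each, with a point per library and the mean and SD of 3 libraries. MTHFD2-205 is lower with MS172 (26.3% to 29.3%) than with PK9328 or DMSO, and SHMT2-213 varies most with PK9328 (7.89% to 15.6%).

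The other genes of these pathways were read from lists of 80 genes, of which 72 were tested. With MS172 against DMSO 16 rose and 16 fell, with PK9328 against DMSO 19 rose and 10 fell, and between MS172 and PK9328 20 were higher and 23 lower. The shares of all tested genes to read these and the following list counts against are those above: 17.9% higher and 17.2% lower for MS172, 7.98% higher and 7.48% lower for PK9328, and 23.3% higher and 24.4% lower between the compounds. The list counts with MS172 were near that background in both directions. The median log2 fold change of the tested list genes was 0.03 for MS172 against DMSO, -0.02 for PK9328 against DMSO and -0.03 between the compounds, close to that of all tested genes. FTCD, FOLR1, SDS, BHMT, PRODH2, ASPG, GLS2 and GLUL, the glutamine synthetase, were too low to test, and GLUL reached at most 0.0408 CPM.

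Of 5 isoenzymes of the members, 2 changed against DMSO in at least 1 comparison. MTHFD1, the cytosolic counterpart of MTHFD1L and MTHFD2, fell with MS172 (-0.12 ± 0.042, edgeR adjusted p = 0.023) and with PK9328 (-0.14 ± 0.042, 0.022). The MS172 call was lost without MS172 replicate 1 (edgeR adjusted p = 0.211) or 2 (0.0671) and without DMSO replicate 1 (0.118) or 3 (0.0642), and the PK9328 call without PK9328 replicate 1 (0.0591) or 2 (0.0965) and without DMSO replicate 1 (0.14) or 3 (0.0733). PYCR3, the cytosolic pyrroline-5-carboxylate reductase, fell with MS172 (-0.23 ± 0.077, edgeR adjusted p = 0.023), a call lost without MS172 replicate 1 (0.127) or 3 (0.0534) or DMSO replicate 1 (0.0847) or 3 (0.05). SHMT1, MTHFD2L and ALDH1L1 passed in neither comparison with DMSO.

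In the cytosolic folate and nucleotide branch, 1 of 10 tested genes rose and 2 fell with MS172, and 1 rose and 4 fell with PK9328. MTHFS, which returns 5-formyltetrahydrofolate to the folate pool, rose with MS172 (8.15 CPM with MS172 and 5.73 CPM with DMSO, log2 fold change 0.51 ± 0.115, edgeR adjusted p = 0.00087). TYMS, the thymidylate synthase, fell with PK9328 (81.6 CPM with PK9328 and 97.9 CPM with DMSO, log2 fold change -0.26 ± 0.041, edgeR adjusted p = 3.7e-05). That value was -0.17 with fragment length as a covariate (edgeR adjusted p = 0.409). Of 11 genes of mitochondrial folate transport and glycine cleavage, DLD, the shared lipoamide dehydrogenase, fell with MS172 (-0.15 ± 0.041, edgeR adjusted p = 0.0053), and only the folate carrier SLC25A32 rose with PK9328 (0.20 ± 0.070, edgeR adjusted p = 0.046). The SLC25A32 call was lost with any 1 of the 3 PK9328 libraries left out, or without DMSO replicate 1 or 3 (edgeR adjusted p of 0.0604 to 0.171). Among 4 folate uptake and retention genes, the proton-coupled folate transporter SLC46A1 fell with MS172 (12.4 CPM with MS172 and 17.1 CPM with DMSO, log2 fold change -0.47 ± 0.097, edgeR adjusted p = 0.00054), although counts rebuilt from length-scaled TPM gave -0.08 (0.744).

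Of 12 genes that use serine or serve the methionine cycle and transsulfuration, 4 rose and 4 fell with MS172, while 1 rose and 1 fell with PK9328. SPTLC2, a subunit of the serine palmitoyltransferase that starts sphingolipid synthesis, rose with MS172 (57.1 CPM with MS172 and 42.7 CPM with DMSO, log2 fold change 0.42 ± 0.048, edgeR adjusted p = 6.9e-08). The methionine adenosyltransferase MAT2A (-0.30 ± 0.044, edgeR adjusted p = 4.2e-06) and the methionine synthase reductase MTRR (-0.44 ± 0.078, 7.4e-05) fell with MS172. MAT2A also fell with PK9328 (-0.15 ± 0.043, edgeR adjusted p = 0.018), a call lost with fragment length as a covariate. MTRR was not called with PK9328 (0.20, edgeR adjusted p = 0.071). CTH, the lyase that makes cysteine from cystathionine, averaged 18.7 CPM with MS172, 27.6 CPM with PK9328 and 16.1 CPM with DMSO. It rose with PK9328 (0.77 ± 0.068, edgeR adjusted p = 1.4e-09) and by less with MS172 (0.21 ± 0.072, 0.024). The MS172 call was lost on library totals (0.10, edgeR adjusted p = 0.286), with length-scaled TPM (0.051) and without MS172 replicate 1 (0.0785) or 2 (0.0606) or DMSO replicate 1 (0.0913) or 3 (0.0652). CTH was lower with MS172 than with PK9328 (log2 fold change -0.56 ± 0.068, edgeR adjusted p = 6.8e-08).

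Of 8 genes of ornithine, proline breakdown and proline use, 2 rose and 1 fell with MS172, while with PK9328 2 fell and none rose in edgeR, also at an unadjusted p under 0.05. The dipeptidase PEPD, which frees proline from dipeptides, rose with MS172 (0.16 ± 0.043, edgeR adjusted p = 0.0032), but not with library totals in place of TMM (0.06, 0.292). Of 11 genes of asparagine, aspartate, glutamate and glutamine metabolism, 2 rose and 1 fell with MS172, and 4 rose and 2 fell with PK9328. The alanine aminotransferase GPT2 rose with both (log2 fold change 0.21 ± 0.046 with MS172 and 0.43 ± 0.045 with PK9328, edgeR adjusted p = 0.00071 and 4.5e-08), though with MS172 not on library totals (0.10, 0.0779). The aspartate aminotransferase GOT1 did so too (0.23 ± 0.045 with MS172 and 0.29 ± 0.044 with PK9328, edgeR adjusted p = 0.00015 and 2.6e-05). ASNSD1, which carries an asparagine synthetase domain, averaged 28.9 CPM with MS172, 42.0 CPM with PK9328 and 33.3 CPM with DMSO. It fell with MS172 (-0.21 ± 0.058, edgeR adjusted p = 0.0067; 0.0562 without MS172 replicate 3), rose with PK9328 (0.33 ± 0.055, 7.2e-05) and was lower with MS172 than with PK9328 (-0.54 ± 0.057, 5.4e-09). With fragment length as a covariate GPT2 (edgeR adjusted p = 0.0631), GOT1 (0.102) and ASNSD1 (0.264) did not pass for PK9328 against DMSO.

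The upstream factors, kinases and feedback genes of the ATF4 arm were the list with the most calls. With MS172 7 of 16 rose and 6 fell, and with PK9328 12 of 16 rose and 1 fell. The median log2 fold change over the 16 genes was -0.02 for MS172 and 0.46 for PK9328. ATF4 itself averaged 371 CPM with MS172, 436 CPM with PK9328 and 317 CPM with DMSO. It rose by a log2 fold change of 0.22 ± 0.037 with MS172 (edgeR adjusted p = 2.0e-05) and of 0.46 ± 0.037 with PK9328 (edgeR adjusted p = 1.7e-10), and MS172 was lower than PK9328 (-0.23 ± 0.037, edgeR adjusted p = 4.4e-06). The transcript level does not measure the ATF4 protein, which is controlled in translation.

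Within this list some genes moved in the same direction with both compounds and others did not. ATF5, a related transcription factor, rose by a log2 fold change of 0.71 ± 0.041 with MS172 and 0.50 ± 0.041 with PK9328 (edgeR adjusted p = 3.0e-14 and 2.8e-10). TRIB3, a pseudokinase that restrains ATF4, rose by 0.52 ± 0.038 with MS172 and 0.76 ± 0.038 with PK9328 (edgeR adjusted p = 5.8e-12 and 1.7e-15). EIF2AK3, the kinase PERK of the endoplasmic reticulum, rose by 0.75 ± 0.067 with MS172 and 0.46 ± 0.067 with PK9328 (edgeR adjusted p = 3.8e-10 and 1.1e-05; for PK9328 0.21 with the fragment length covariate). DDIT3, which encodes the stress factor CHOP, averaged 49.0 CPM with MS172, 138 CPM with PK9328 and 55.6 CPM with DMSO. It rose with PK9328 (1.31 ± 0.061, edgeR adjusted p = 1.7e-10) and fell with MS172 (-0.18 ± 0.066, edgeR adjusted p = 0.039). The fall was lost with the replicate block (edgeR adjusted p = 0.0906) and without MS172 replicate 2 (0.093) or 3 (0.161) or DMSO replicate 2 (0.181) or 3 (0.133). PPP1R15A, the phosphatase subunit GADD34 that reverses eIF2 phosphorylation, averaged 63.8 CPM with MS172, 158 CPM with PK9328 and 96.9 CPM with DMSO. It fell with MS172 (-0.60 ± 0.043, edgeR adjusted p = 2.1e-12) and rose with PK9328 (0.70 ± 0.040, 3.6e-14), and the gap between the compounds was -1.31 ± 0.042 (6.7e-21). SESN2, a leucine sensor that restrains mTORC1, rose with PK9328 (164.8 CPM with PK9328 and 89.5 CPM with DMSO, log2 fold change 0.88 ± 0.037, edgeR adjusted p = 4.1e-17). Its log2 fold change with MS172 was -0.07, with a 95% interval of -0.15 to 0.01, and -0.18 on library totals.

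**Figure D4:**
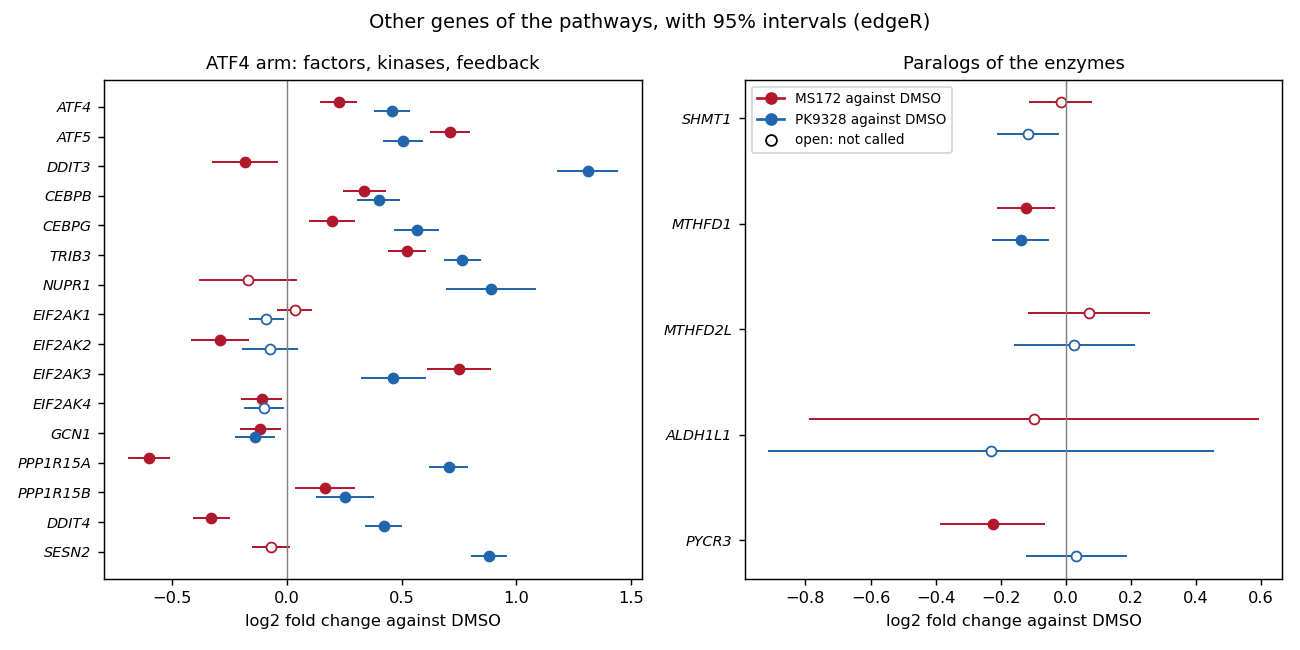
Log2 fold changes against DMSO with 95% intervals for MS172 and PK9328, for the 16 genes of the ATF4 arm (left) and the 5 isoenzymes (right), filled where the edgeR adjusted p is under 0.05. DDIT3, PPP1R15A, DDIT4 and SESN2 lie below or near 0 with MS172 and above 0 with PK9328, while the isoenzymes stay near or below 0 in both.

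The median profile of the 10 enzymes was flat within groups. Relative to the DMSO mean it stood at 0.12 to 0.15 (log2) in the MS172 libraries, 0.10 to 0.16 in the PK9328 libraries and 0.00 to 0.03 in the DMSO libraries. SHMT2 lay closest to it (root mean square difference 0.028 over the 9 libraries), then ASNS (0.040), while ALDH1L2 (0.22) and PSPH (0.20) lay farthest. Among 11319 other coding genes the 5 nearest to the median profile were ZFAND3 (0.015), CHMP1B (0.023), YARS (0.023), C1orf43 (0.025) and UBE2D3 (0.029). ZFAND3 averaged 149.2 CPM with MS172, 146.6 CPM with PK9328 and 134.8 CPM with DMSO. This likeness is a description over libraries that share their groups, and it carries no test.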

How the data were processed

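RNA sequencing of 9 poly(A) libraries, 3 per group by title, was analysed from deposited transcript tables. Per the file headers, the authors' tables give estimated counts of reads, which need not be whole, and TPM normalised by the authors to length and library. FastQC 0.11.8 and the build hg38 appear in the submitters' processing notes, while the quantifier is not given in the sources used here. Of 197653 transcripts, 193505 matched GENCODE 29 (the unmatched held 0.356% to 0.382% of reads and were left out), and their estimated counts were summed per gene and rounded.

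All 9 libraries entered a single fit with edgeR 4.0.16 in R 4.3.3 (quasi-likelihood test, robust, TMM, filterByExpr, 6 residual degrees of freedom), two-sided, with Benjamini-Hochberg adjustment over 13914 genes and calls under 0.05. The same fit gave each contrast, and 95% intervals cover the spread between libraries only. "Rose" and "fell" are used of called genes. The enzymes and the pathway lists were chosen with earlier results of these data known. List genes named are up to 4 called per list and comparison with the smallest p, plus ATF4, DDIT3 and the isoenzymes, and list genes too low to test are named too. A gene that this rule names is not reported here. Same-numbered libraries of different groups did not deviate together (correlations of -0.057 to 0.017), so no pairing by number was seen. Correlations over all genes cannot exclude a small shared effect. Of 16 annotated pseudogenes of the enzymes, none averaged over 0.224 reads. Alternatives were RLE, DESeq2 1.42.0, limma-voom (limma 3.58.1), other filters, replicate block, fragment length, length-scaled TPM, a GC and length offset (mgcv 1.9.3), only the compared libraries, each library left out and, added later, library totals. Only the main edgeR fit was run on simulated data, which held no difference in scaling or fragment length between groups.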

Additional observations from a re-analysis of the deposited data

How the results depend on the processing

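Changes of sign were seen only in comparisons in which the enzyme was not called in the TMM-scaled fit. The log2 fold change with MS172 against DMSO changed sign for PSPH with length-scaled TPM (-0.01) and library totals (-0.077), and with library totals for MTHFD1L (-0.019) and ALDH18A1 (-0.053). With PK9328 against DMSO it did so for MTHFD1L without DMSO replicate 1 (-0.001, with a range up to 0.049 over the libraries left out), for ALDH1L2 with length-scaled TPM (0.10), without PK9328 replicate 1 (0.027, with a range down to -0.049) and with library totals (0.015), and for ALDH18A1 with the fragment length covariate (0.027) and that covariate plus replicate block (0.046). Between MS172 and PK9328 it did so for SHMT2 with the covariate (0.062), covariate plus block (0.056) and without PK9328 replicate 3 (0.001, with a range down to -0.039), for MTHFD1L with the covariate (-0.01) and library totals (-0.077), and for ALDH1L2 with the covariate (0.08) and covariate plus block (0.16).

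With library totals, enzymes called for MS172 against DMSO were 3 higher and 1 lower, and list genes 8 higher and 26 lower. For PK9328 against DMSO list genes lower were 2, and between MS172 and PK9328 enzymes were 0 higher and 6 lower and list genes 2 higher and 36 lower. With the fragment length covariate, PK9328 against DMSO gave 3 enzymes higher and 12 list genes higher and 0 lower, and MS172 against PK9328 gave 0 enzymes higher and 1 lower, with list genes 5 higher and 12 lower. With covariate and replicate block, PK9328 against DMSO gave 0 enzymes higher and 9 list genes higher and 0 lower, and MS172 against PK9328 gave 0 enzymes higher and 1 lower, with list genes 1 higher and 7 lower. List genes lower with MS172 against DMSO were 10 with DESeq2, 8 with length-scaled TPM and 10 to 15 with a library left out. List genes lower with PK9328 against DMSO were 2 with length-scaled TPM and 4 to 7 with a library left out. The GC and length offset called ALDH18A1 lower with PK9328 against DMSO (1 enzyme). With MS172 against DMSO it called 8 enzymes higher, adding MTHFD1L (0.146, edgeR adjusted p = 0.0275) and ALDH18A1 (0.115, 0.00516), and 24 list genes higher. Between the compounds it left 2 enzymes higher and 2 lower, without PYCR1 (0.047, edgeR adjusted p = 0.211) and PSAT1 (0.0592). The replicate block alone changed 1 enzyme call, PYCR1 with PK9328 against DMSO (0.12, edgeR adjusted p = 0.0517), and gave 4597, 1884 and 6405 called genes for MS172 against DMSO, PK9328 against DMSO and MS172 against PK9328. All genes called for PK9328 against DMSO numbered 178 with the covariate, 74 with covariate and block, 1080 with length-scaled TPM, 1384 without DMSO replicate 1 and 1400 without PK9328 replicate 2, against 2151. For MS172 against PK9328 they numbered 2480 and 1381 with the covariate and with covariate and block, against 6641. Length-scaled TPM also lost SHMT2 with MS172 (0.05, 0.498) and PYCR1 with PK9328 (0.181), and RLE lost PSAT1 between the compounds (0.0502).

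As a share of summed TPM in place of reads, the mean over libraries was 20.4% for MTHFD2-201, 51.2% for MTHFD2-205 and 23.5% for MTHFD2-203, against 46.2%, 31.2% and 18.9%. It was 36.8% for SHMT2-202, 14.2% for SHMT2-226 and 19.0% for SHMT2-213, against 50.8%, 22.0% and 8.59%. Over all alternatives, 474 enzyme fold changes kept direction and side of the threshold, 42 lost and 7 gained a call, and 17 changed sign. Depth limits ALDH1L2 most. The causes were not tested.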
